A study of Mus musculus with 8 samples.

Results

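The genes described here are 39 members of the actin cytoskeleton and leukocyte motility machinery, out of 10825 genes in the deposited count table. They were chosen by symbol, as rows whose Ensembl mouse gene ID maps to a fixed list, and all 39 were found and all 39 passed the filter on low counts. The study sorted dendritic cells (DCs), the antigen-presenting cells that carry antigen to T cells, from E0771 tumours grown in wild-type (WT) mice; E0771 is a mouse mammary carcinoma cell line. One group of 4 samples came from mice given DRQ, described as an inhibitor of CD74, and the other group of 4 from mice given PBS, with treatment from day 10 and tumours taken 3 weeks after injection. Transcripts were read by bulk-adapted MARS-seq, which counts the 3′ ends of polyadenylated RNA. The labels do not say whether a sample is 1 mouse or a pool, and the p-values therefore rest on sample-to-sample spread that could be technical.

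Actin monomers assemble into filaments that push the cell front forward and, with myosin, pull the cell body along. Cofilin, profilin and the thymosins set the supply of monomers and the Arp2/3 complex nucleates branched filaments when WASP switches it on. In DCs this machinery serves antigen uptake, migration to lymph nodes and the contact with T cells, and the integrin LFA-1 (Itgal with Itgb2) anchors such contacts. The same genes are used by nearly every leukocyte, so they do not mark DCs.

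Libraries held 438648 to 539381 counts in DRQ and 361792 to 543892 counts in PBS. Of 13 conventional DC markers 11 were matched by symbol to a row of the count table, and 10 of them were counted in all 8 libraries. Xcr1 and Clec9a had no matched row and were not analysed. Zbtb46, a defining transcription factor, had 1 to 12 counts per DRQ library and 0 to 1 per PBS library. The 11 markers summed to 14533 to 16606 CPM (counts scaled to a common library total) in DRQ and 8474 to 13621 CPM in PBS, so the groups did not overlap. The class II genes H2-Ab1 and H2-Aa and Cd74 were then left out, after their values were seen. The other 8 summed to 5813 to 6606 CPM in DRQ and 3571 to 6125 CPM in PBS. These groups overlapped through PBS replicate 3 alone. Most of that sum came from Cst3 and Irf8. Their means were 4117 and 2024 CPM in DRQ and 3039 and 1721 CPM in PBS (scaled for library composition as well). Cst3 and Irf8 each overlapped between the groups. Log2 fold changes were 0.44 for Cst3, 0.24 for Irf8, 0.57 for Flt3, 0.13 for Batf3, 0.11 for Irf4 and -0.16 for Itgax. Zbtb46 and Cd209a did not pass the filter on low counts. Of the 9 DC markers tested one by one, 8 had estimates above 0, Itgax being the exception, and 0 passed. Among all tested genes 48.4% had estimates above 0. Cd74 itself, the stated target of DRQ, had 3413 to 4552 CPM in DRQ and 1853 to 3409 CPM in PBS (here scaled for library composition as well), with a log2 fold change of 0.63 ± 0.18 that did not pass (adjusted p = 0.317 by edgeR with Benjamini-Hochberg adjustment). The 10 markers of natural killer (NK) and cytotoxic cells, all counted in all 8 libraries, summed to 10014 to 14802 CPM in DRQ and 11788 to 15378 CPM in PBS. The 11 T cell markers summed to 2866 to 3170 CPM in DRQ and 2579 to 3398 CPM in PBS. Most of the T cell sum came from Trbc1, Lck and Trbc2, with log2 fold changes of -0.11, -0.04 and 0.04. Single T cell markers had log2 fold changes from -0.65 for Cd8a to 0.94 for Cd5, with 6 of the 11 above 0, and 0 passed. The markers with an unadjusted p under 0.05 by edgeR were Cd5, Cd3d, Cd4 and Trac, all higher in DRQ. Among all tested genes 7.26% lay under that value. These libraries thus held abundant lymphocyte transcripts beside those of DCs. Of the 9 monocyte and macrophage markers analysed, 7 were counted in all 8 libraries, with sums of 391 to 1335 CPM in DRQ and 362 to 804 CPM in PBS. Sums stayed at or under 243 CPM in every library for neutrophil, epithelial, endothelial, fibroblast, platelet and B cell markers, of which 4 of 6, 4 of 6, 3 of 4, 1 of 7, 1 of 4 and 1 of 6 were analysed; the only fibroblast marker among them, Acta2, had 0 to 7 counts per library. Epithelial sums were 30.2 to 150 CPM in DRQ and 109 to 243 CPM in PBS. Krt8 among them had 20.4 to 109 CPM in DRQ and 111 to 194 CPM in PBS (scaled for library composition as well). Its log2 fold change was -1.08 ± 0.33 (adjusted p = 0.333 by edgeR with Benjamini-Hochberg adjustment), so it did not pass. Groups were apart in that direction for 2.18% of all tested genes. Krt18 stood at -0.01 ± 1.04. In bulk RNA, fewer cells of a type and less RNA per cell cannot be told apart, and the part of cell composition in the values below was not tested.

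The transcripts of the machinery took 3.79% to 3.86% of all counts in DRQ libraries and 3.45% to 4.01% in PBS libraries. None of the 39 genes was called between DRQ and PBS by edgeR (quasi-likelihood test, Benjamini-Hochberg adjustment) over the 6156 genes tested (0 members, lowest adjusted p = 0.543), where 2 genes, or 0.0325%, were called in all. Limma-voom called 0 members, and so did DESeq2 among the 38 it adjusted. At an unadjusted p under 0.05 edgeR gave 1 member, Rac2, while 7.26% of all tested genes lay under that value. Log2 fold changes, DRQ over PBS, ran from -0.61 to 0.26 with a median of 0.06, against a median of -0.01 over all tested genes. Estimates above 0 numbered 28 of 39 for the members, and 27 to 30 under the other scaling factors and 24 to 31 with 1 library left out, against 48.4% of all tested genes.

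How far each member could have differed is given by its interval. The 95% interval of the log2 fold change lay wholly between -0.5 and 0.5 for 25 of the 39 members, and between -1 and 1 for 37; the intervals are per gene and are not adjusted for the number of members. Tmsb4x and Rac2 were the 2 whose intervals reached past a change of 1. For all tested genes the corresponding shares were 10.4% and 58.8%, and among genes at or above the mean level of the lowest member they were 13.9% and 73.3%. That cut-off was set by Itga4, which ranked 4624 by mean level, while the next lowest member, Rac2, ranked 1704. Most members were thus more abundant than most genes in this comparison, and the shares are not matched for level.

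**Figure D1:**
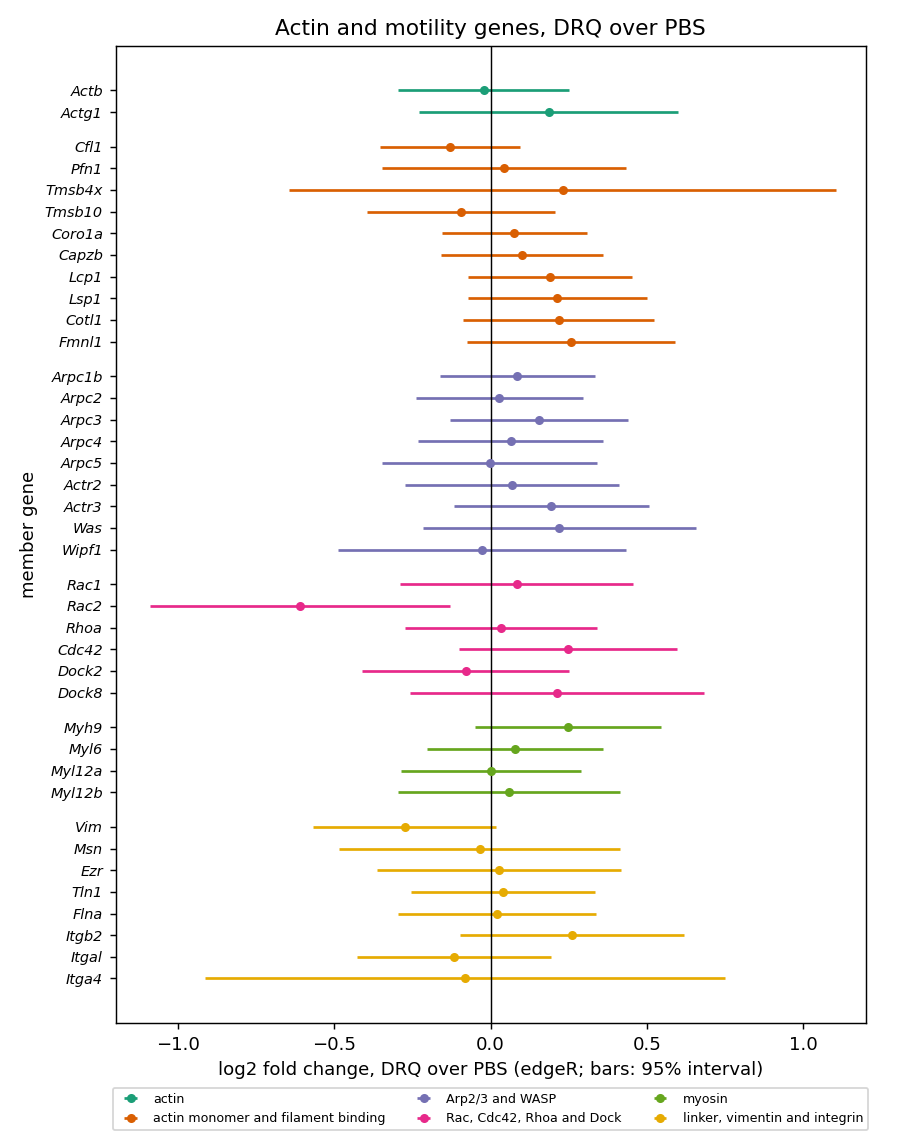
Log2 fold change, DRQ over PBS, of the 39 member genes by role, with 95% intervals from edgeR; the vertical line marks 0. The interval of Rac2 alone, from -1.09 to -0.13, leaves out 0.

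Actb and Actg1 encode the cytoplasmic β- and γ-actins, whose proteins are nearly identical. Actb (ENSMUSG00000029580) was counted at 10952, 12258, 12564 and 13020 CPM in DRQ replicates 1 to 4, against 9838, 9634, 15097 and 14956 CPM in PBS replicates 1 to 4 (CPM per member gene are scaled by TMM factors, which correct for differences in library composition). The DRQ libraries all lay inside the PBS range, because PBS replicates 3 and 4 were above every DRQ library and PBS replicates 1 and 2 below every one. Means were 12198 ± 888 CPM in DRQ and 12381 ± 3056 CPM in PBS (SD, n = 4), and the log2 fold change was -0.02 ± 0.13 (SE), with a sign that turned to 0.00879 when no scaling beyond library size was used. Actg1 (ENSMUSG00000062825) had 222, 177, 177 and 145 CPM in DRQ, against 180, 157, 117 and 176 CPM in PBS. Its groups overlapped, and its log2 fold change was 0.19 ± 0.20. Both actin genes together took 1.10% to 1.26% of counts in DRQ libraries and 0.964% to 1.39% in PBS libraries.

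**Figure D2:**
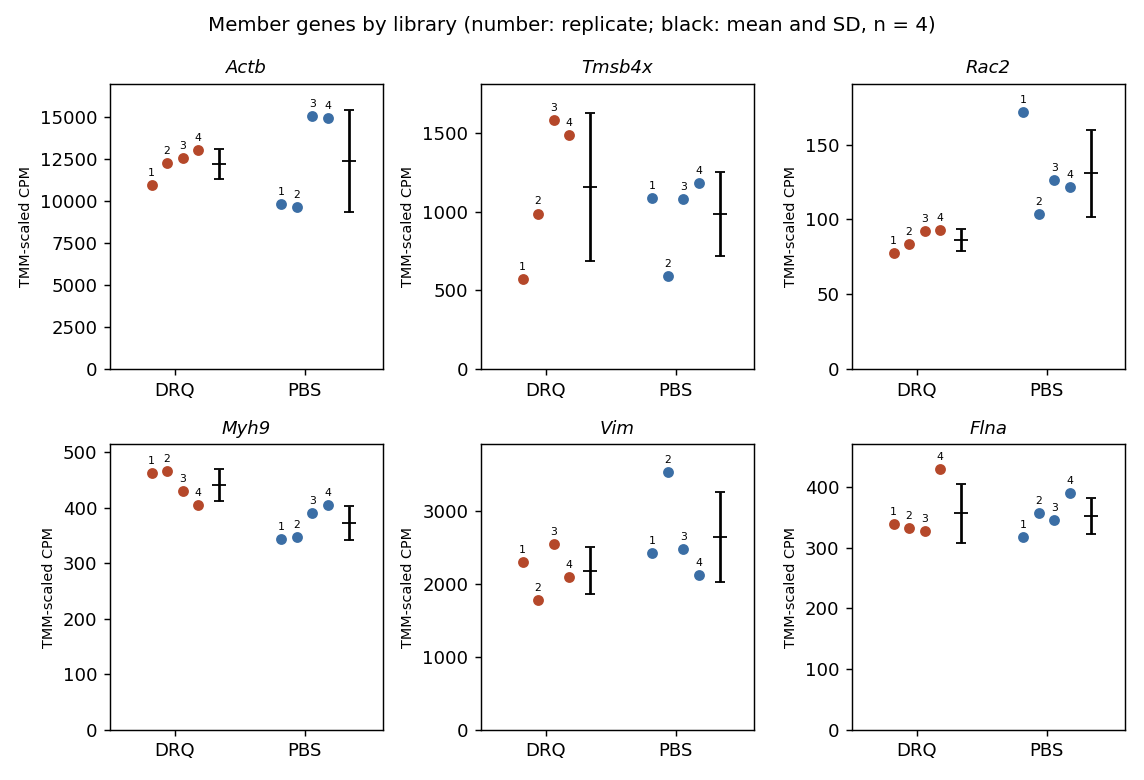
TMM-scaled CPM of 6 member genes in each DRQ library (left) and PBS library (right), with replicate numbers; black marks are the mean and SD of 4 libraries. Rac2 and Myh9 do not overlap between groups, while Actb of all DRQ libraries lies between the lower and the higher pair of PBS libraries.

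Proteins that bind actin monomers or filaments had estimates above 0 in 8 of 10 members, with a median log2 fold change of 0.15, and 0 were called. Cfl1, cofilin, which severs filaments, had 2715, 2660, 2592 and 2483 CPM in DRQ, against 2942, 2614, 2866 and 3013 CPM in PBS. PBS replicates 1, 3 and 4 exceeded all DRQ libraries and PBS replicate 2 did not. Its log2 fold change was -0.13 ± 0.11, and its 95% interval of -0.35 to 0.09 was the narrowest of any member. Pfn1, profilin, which feeds monomers to growing ends, stood at 0.04 ± 0.19.

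Tmsb4x and Tmsb10 encode thymosins β4 and β10, small peptides that sequester actin monomers. Tmsb4x spread widely within both groups, at 573, 988, 1585 and 1486 CPM in DRQ, against 1087, 590, 1081 and 1182 CPM in PBS. DRQ replicate 1 and PBS replicate 2 were low together and DRQ replicates 3 and 4 were high, so the groups overlapped. The log2 fold change was 0.23 ± 0.37, from 0.05 without PBS replicate 2 to 0.46 without DRQ replicate 1, and its interval of -0.64 to 1.11 was the widest. Tmsb10 did not follow this pattern: it had 1836, 2965, 1989 and 2166 CPM in DRQ, against 2151, 1929, 2821 and 2672 CPM in PBS, with a log2 fold change of -0.10 ± 0.15.

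Of the filament-binding members, Fmnl1, a leukocyte formin that elongates unbranched filaments, had the highest estimate, 0.26 ± 0.16, with 424, 549, 392 and 375 CPM in DRQ and 338, 449, 348 and 323 CPM in PBS. Only PBS replicate 2 kept those groups from separating. Lsp1 and Lcp1, leukocyte proteins that bind and bundle filaments, stood at 0.21 ± 0.14 and 0.19 ± 0.13, and Cotl1, a coactosin-like filament-binding protein, at 0.22 ± 0.15. Cotl1 was even in DRQ, at 978 to 1050 CPM, and uneven in PBS, at 632 to 1139 CPM. Capzb, a capping protein subunit, stood at 0.10 ± 0.13 and Coro1a, coronin 1A, a leukocyte regulator of Arp2/3, at 0.08 ± 0.11.

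Estimates for the Arp2/3 complex and its activators were close to even between the treatments. Their median log2 fold change was 0.07 over 9 members, 7 of them above 0, and 0 were called. Arpc1b, the Arpc1 isoform that prevails in blood cells, had 1756, 1826, 1791 and 1681 CPM in DRQ, against 1517, 1454, 1934 and 1743 CPM in PBS (log2 fold change 0.09 ± 0.12). Its DRQ libraries again lay inside the PBS range. The other subunits stood between -0.003 for Arpc5 and 0.19 for Actr3, with SE of 0.13 to 0.17, and Arpc5 lay above 0 under library-size scaling (0.0255). Actr2 and Actr3, the actin-related proteins that start the new filament, had 271 to 349 and 427 to 551 CPM in DRQ and 243 to 363 and 354 to 514 CPM in PBS. Was, the haematopoietic WASP that switches the complex on, had 190, 130, 162 and 131 CPM in DRQ, against 162, 132, 114 and 114 CPM in PBS (0.22 ± 0.21). Wipf1, which stabilises WASP, stood at -0.03 ± 0.22.

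Among the GTPase genes Rac1, Rac2, Rhoa and Cdc42, Rac2 stood apart from its paralog Rac1. Rac2 (ENSMUSG00000033220), the haematopoietic Rac that drives lamellipodia and the oxidative burst, had 77.5, 83.4, 92.0 and 92.8 CPM in DRQ, against 172, 104, 126 and 121 CPM in PBS. Every DRQ library was below every PBS library. Among all tested genes 2.18% had groups apart in this direction, and 1 of the 39 members did. The log2 fold change was -0.61 ± 0.23 (unadjusted p = 0.0145, adjusted p = 0.543 by edgeR with Benjamini-Hochberg adjustment), so it did not pass. It rested on 38, 41, 38 and 48 counts in DRQ and 90, 37, 42 and 47 counts in PBS, and without PBS replicate 1, the highest library, it was -0.44 and no member had an unadjusted p under 0.05.

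Rac1, the widely expressed Rac, had 239, 212, 271 and 336 CPM in DRQ, against 306, 258, 210 and 219 CPM in PBS, with a log2 fold change of 0.08 ± 0.18. The groups overlapped throughout. The number of Rac2 counts per Rac1 count was 0.325, 0.394, 0.339 and 0.276 in DRQ libraries, against 0.562, 0.402, 0.600 and 0.553 in PBS libraries. This ratio uses the same Rac2 counts, was looked at after the Rac2 values were seen and was not tested. Its groups did not overlap, with DRQ replicate 2 and PBS replicate 2 nearly level.

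Cdc42, which directs filopodia and cell polarity, stood at 0.25 ± 0.17 and Rhoa, which switches on actomyosin contraction, at 0.03 ± 0.15. Dock2 and Dock8 are exchange factors that load Rac and Cdc42 with GTP in leukocytes. Dock2 had 273, 242, 220 and 263 CPM in DRQ, against 258, 284, 249 and 266 CPM in PBS (-0.08 ± 0.16). Dock8, needed by DCs to pass through tight spaces, had 234, 159, 116 and 166 CPM in DRQ, against 118, 112, 195 and 163 CPM in PBS (0.21 ± 0.23). Neither gene separated the groups.

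All 4 myosin genes had estimates above 0, with a median of 0.07, though Myl12a turned to -0.00889 with upper quartile scaling. Myh9, the heavy chain of non-muscle myosin IIA, which retracts the rear of a moving leukocyte, had 463, 466, 431 and 406 CPM in DRQ, against 344, 348, 391 and 405 CPM in PBS. All DRQ libraries were above all PBS libraries, but DRQ replicate 4 and PBS replicate 4 were almost equal. Groups were apart in this direction for 2.14% of all tested genes and for 1 of the 39 members. The log2 fold change was 0.25 ± 0.15 (unadjusted p = 0.0995, adjusted p = 0.751 by edgeR with Benjamini-Hochberg adjustment). The light chains Myl6, Myl12a and Myl12b stood at 0.08 ± 0.14, 0.002 ± 0.14 and 0.06 ± 0.17. Myl12a and Myl12b encode near-identical proteins, as do the 2 actin genes; the counting of reads shared by such copies is not stated, and the split of reads between them was not tested.

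Vim encodes vimentin, the intermediate filament of leukocytes and mesenchymal cells, and it had the lowest estimate after Rac2. It had 2301, 1778, 2546 and 2085 CPM in DRQ, against 2420, 3529, 2469 and 2122 CPM in PBS. PBS replicate 2 was the highest library and the rest overlapped. The log2 fold change of -0.28 ± 0.14 (95% interval -0.57 to 0.02) became -0.11 without PBS replicate 2. That same library was the lowest of all for Lsp1, Cotl1 and Pfn1.

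Linkers between membrane and actin had small estimates. Msn and Ezr, the ERM proteins moesin and ezrin, stood at -0.03 ± 0.22 and 0.03 ± 0.19. Tln1, talin, which switches integrins to their binding state, had 491, 582, 663 and 516 CPM in DRQ, against 508, 508, 628 and 547 CPM in PBS (0.04 ± 0.14), and Flna, filamin A, a filament cross-linker, stood at 0.02 ± 0.15. For none of these 4 were the groups apart.

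Of the integrins, Itgb2, the β2 chain, had 534, 384, 324 and 338 CPM in DRQ, against 365, 250, 367 and 338 CPM in PBS, and Itgal, its αL partner in LFA-1, had 381, 344, 310 and 311 CPM in DRQ, against 357, 390, 378 and 336 CPM in PBS. DRQ replicate 1 was high for both chains within its group. Their log2 fold changes were 0.26 ± 0.18 and -0.12 ± 0.15, and the difference between them was not tested. Itga4, the α4 chain of VLA-4, was the member with the fewest counts, 124 in all. It had 24.5, 28.5, 21.8 and 61.8 CPM in DRQ, against 22.9, 39.3, 42.0 and 43.9 CPM in PBS, so its value of -0.08 ± 0.41 is loose.

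Averaged over all 39 members, the level was 9.039, 8.987, 9.016 and 9.036 log2 CPM in DRQ replicates 1 to 4, against 8.931, 8.844, 9.003 and 9.076 log2 CPM in PBS replicates 1 to 4. The DRQ libraries sat inside the PBS range, whose lowest library was PBS replicate 2 and highest PBS replicate 4. The difference of means, DRQ minus PBS, was 0.06 log2 CPM, where the SD was 0.02 in DRQ and 0.10 in PBS (n = 4). For 5 groups of members by role, the difference was 0.10 for the actins, 0.11 for monomer and filament binders, 0.09 for Arp2/3 and WASP, 0.11 for the myosins and -0.04 for the linkers, vimentin and integrins. The ranges of DRQ and PBS overlapped in these 5 groups. Gene by gene, the median SD of log2 CPM over the members was 0.151 in DRQ and 0.234 in PBS, and over all tested genes it was 0.342 in DRQ and 0.383 in PBS. The smaller SD was in DRQ for 20 of 39 members, or 51.3%, against 57.6% of all tested genes, and this difference in spread was not tested.

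**Figure D3:**
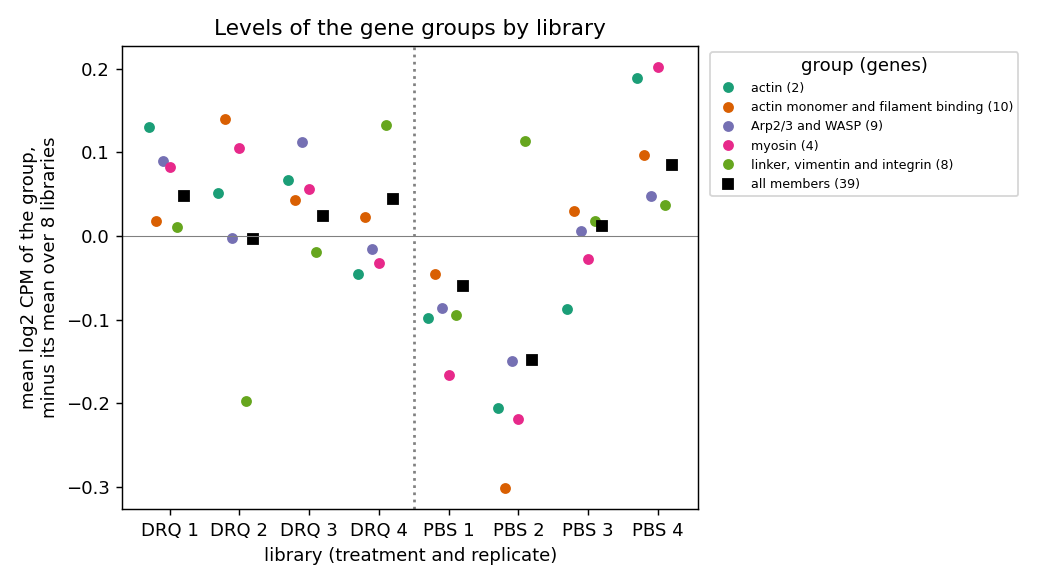
Mean log2 CPM of 5 groups of member genes in each library, minus the mean of that group over the 8 libraries, with DRQ libraries left of the dotted line and PBS libraries right of it; squares are all 39 members. The squares of the 4 DRQ libraries lie between those of PBS replicates 2 and 4.

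Beyond the members, 100 further genes of the same machinery were listed, of which 95 were analysed and 78 passed the filter. With edgeR 0 of the 78 were called over all genes, and at an unadjusted p under 0.05 there were 4 higher and 1 lower, where 3.98% and 3.28% of all tested genes lay under that value in each direction. Their median log2 fold change was 0.03, and 43 of 78 were above 0. Srf, the serum response factor that drives transcription of actin and contractile genes, had 24.5, 89.5, 70.2 and 61.8 CPM in DRQ, against 15.3, 30.9, 33.0 and 18.1 CPM in PBS. DRQ replicate 1 lay inside the PBS range and the other 3 DRQ libraries above it. Its log2 fold change was 1.36 ± 0.41 (adjusted p = 0.308 by edgeR with Benjamini-Hochberg adjustment), from 154 counts in all, and it ran from 1.12 to 1.64 when 1 library at a time was left out.

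Mrtfa, the coactivator that monomeric actin holds in the cytoplasm away from SRF, had 122, 161, 160 and 81.2 CPM in DRQ, against 55.4, 73.0, 102 and 119 CPM in PBS (log2 fold change 0.59 ± 0.27). The groups overlapped. Fscn1, fascin, the filament bundler of mature DCs, had 139, 173, 167 and 139 CPM in DRQ, against 84.1, 84.2, 69.1 and 142 CPM in PBS (0.70 ± 0.24). One PBS library, replicate 4, was level with the DRQ libraries. Myo1g, a leukocyte myosin that ties membrane to actin, had 549, 470, 489 and 470 CPM in DRQ, against 426, 390, 381 and 382 CPM in PBS (0.32 ± 0.14). Every DRQ library of Myo1g was above every PBS library. Groups were apart in this direction for 4 of the 78 further genes tested, and in the other direction for 1. Among all tested genes the shares were 2.14% and 2.18%. Pstpip1, a WASP-binding adaptor, had 249, 258, 179 and 286 CPM in DRQ, against 346, 345, 324 and 240 CPM in PBS (-0.37 ± 0.18), with PBS replicate 4 among the DRQ libraries. The adjusted p of Mrtfa, Fscn1, Myo1g and Pstpip1 lay between 0.396 and 0.680 by edgeR with Benjamini-Hochberg adjustment, so none passed.

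**Figure D4:**
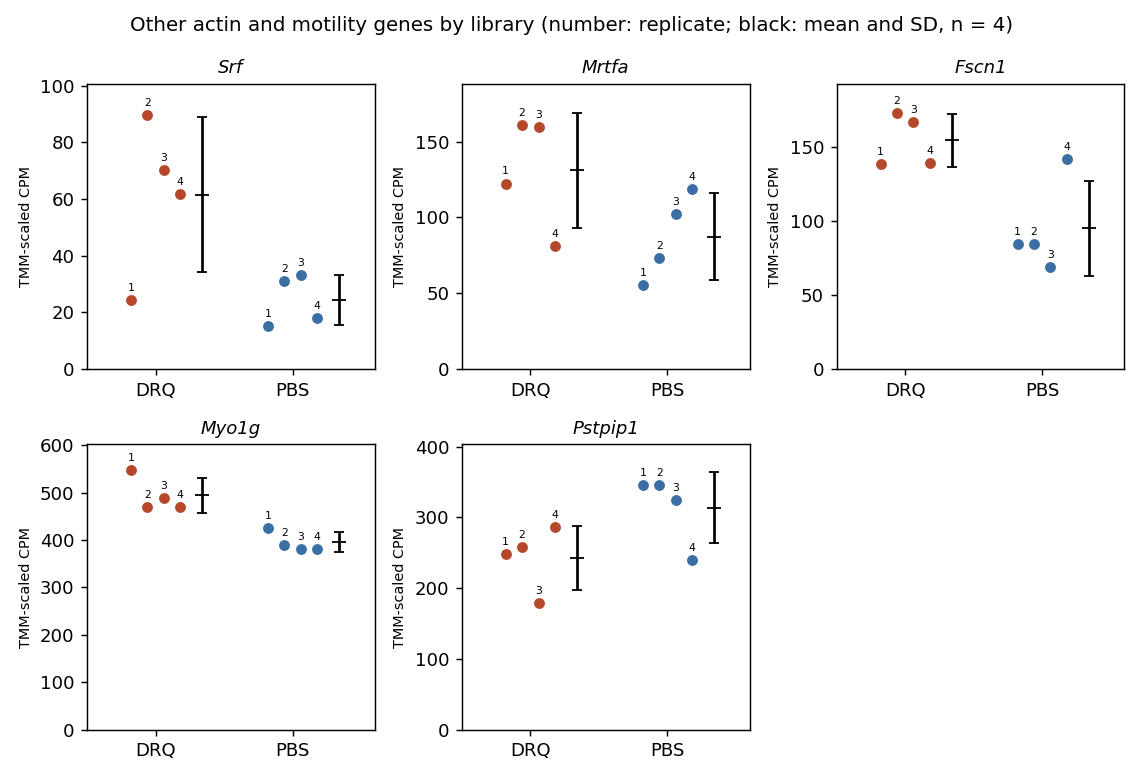
TMM-scaled CPM of the 5 further actin and motility genes with an unadjusted p under 0.05, in each DRQ library (left) and PBS library (right), with replicate numbers; black marks are the mean and SD of 4 libraries. Of these 5 genes, only Myo1g has all DRQ libraries above all PBS libraries.

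SRF binds the CArG box, a run of A and T between CC and GG, and promoters of actin genes are its textbook targets. RefSeq promoter windows of build GRCm38.p6, 250 bases before to 50 after each gene's start, were found for 32 of the 39 members, and not for Actb, Lsp1, Cotl1, Rac1, Rac2, Itgb2 and Itgal. A CArG box was present for 3 of the 32, or 9.38%, and for 1.81% of all 27025 genes in that table. The members were listed as actin and motility genes, so a higher share is no result of these data. The 27025 genes were also not limited to those tested here. The box reads as the same pattern on both strands, and a match is a description of the letters, not a binding site. These stretches are shown because they set the 3 members that hold the box beside Srf, which holds 2 boxes itself; capitals mark the boxes, and each stretch reads 5′ to 3′ on the gene's strand.
Actg1, chr11:120348541-120348620, minus strand: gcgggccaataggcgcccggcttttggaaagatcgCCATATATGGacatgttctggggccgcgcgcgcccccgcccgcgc
Myl6, chr10:128493015-128493094, minus strand: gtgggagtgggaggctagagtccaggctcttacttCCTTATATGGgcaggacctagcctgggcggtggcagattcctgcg
Arpc4, chr6:113377863-113377907, plus strand: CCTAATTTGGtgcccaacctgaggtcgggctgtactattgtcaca
Srf, chr17:46556180-46556279, minus strand: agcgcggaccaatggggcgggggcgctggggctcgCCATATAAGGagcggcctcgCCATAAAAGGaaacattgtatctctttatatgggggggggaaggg
The box began 90 bases before the start of Actg1, 50 before that of Myl6, 250 before that of Arpc4, and 82 and 62 before that of Srf. Beside the Srf estimate of 1.36, which did not pass, the 3 members with a box stood at 0.19 ± 0.20 for Actg1, 0.08 ± 0.14 for Myl6 and 0.06 ± 0.14 for Arpc4. Whether any member followed Srf was not tested, and boxes outside the promoter windows were not searched. Myl6 had 1246, 1393, 1205 and 1179 CPM in DRQ, against 1009, 966, 1337 and 1446 CPM in PBS, and Arpc4 had 612, 893, 673 and 636 CPM in DRQ, against 602, 682, 652 and 756 CPM in PBS. Both overlapped between the groups.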

How the data were processed

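The authors deposited raw counts, whole numbers for each Ensembl gene, of 4 DRQ and 4 PBS samples. The authors' normalized table holds a signal, those counts divided by 1 size factor per library (within 0.011), and served 1 alternative. Per the submitters' processing notes, the build was GRCm39 and the tools included STAR 2.7.3a, HTSeq, cutadapt, bcl2fastq 2.20.0.422, DESeq and DESeq2 1.26.0, with no roles given; UMI collapse and use of strand are not given in the sources used, so overlapping genes cannot be separated. Symbols matched 10788 of 10825 IDs. In each row the highest library held 6 counts or more, and listed genes without a matched row were not analysed. The counts went into a robust quasi-likelihood F test of edgeR 4.0.16, under R 4.3.3 (2-sided; TMM; filterByExpr; Benjamini-Hochberg over 6156 genes holding 94.9% of counts, threshold 0.05), and the fit was tested on simulated data. SE is the estimate over the root of F, and intervals use the test's degrees of freedom. Group levels are mean log2 CPM (prior count 2); cell type sums are unscaled CPM. Alternatives were other scaling factors and filters, a prior count of 0.5, DESeq2 1.42.0, limma-voom (limma 3.58.1), limma on log2 of the normalized signal + 1, a replicate block, and leaving out each library. All members are named, plus up to 4 per direction of the 100 further genes with an unadjusted p under 0.05. Members and lists were chosen with earlier results of these data known. All pairs of libraries differed by more than sampling noise (chi-square over its degrees of freedom, 2.60 to 4.21). A count of 0 allows 5.52 to 8.29 CPM, counting error only. Figures used matplotlib 3.10.9. The mean level of 1 group of members is not reported here.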

Additional observations from a re-analysis of the deposited data

Results flagged for a closer look

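In groups of 4 libraries, 5 of 94 sets of values had 1 library far from the others (Dixon's gap ratio above its 95% critical value); chance gives about 1 in 20. DRQ replicate 4 was the low one for Cotl1, at 978 CPM with the other DRQ libraries at 1038 to 1050 CPM. It was the high one for Flna, at 429 CPM with the others at 327 to 339 CPM, and for Itga4, at 61.8 CPM with the others at 21.8 to 28.5 CPM. PBS replicate 2 was the low one for Tmsb4x, at 590 CPM with the other PBS libraries at 1081 to 1182 CPM, and for Lsp1, at 713 CPM with the others at 1082 to 1108 CPM. PBS replicate 2 had the fewest counts of the 8 libraries, 361792; whether depth had a part was not tested.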

How the results depend on the processing

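No member was called under any of the 17 alternative fits (lowest adjusted p = 0.461, for Rac2 with edgeR's quasi-likelihood test and Benjamini-Hochberg adjustment without PBS replicate 2), and the 6 differences in mean level moved by less than 1 SD under the alternatives run on them. Members with an unadjusted p under 0.05 numbered 0 to 3 when 1 library was left out, 0 without PBS replicate 1 and 3 (Cotl1, Rac2 and Vim) without PBS replicate 4. The count of all genes called, 2, was 7 with library size only, 15 with DESeq2, 4 with limma-voom, 8 with no filter and 6 with a replicate block; with 1 library left out it ran from 0 (without DRQ replicate 3, where 437 had an unadjusted p under 0.05) to 15 (without PBS replicate 4), with 7 without DRQ replicate 4 and 6 without PBS replicate 3. Same-numbered libraries shared little of their deviations (correlations 0.0805, -0.014, 0.0605 and -0.00755), and the labels do not say whether the replicate numbers mark pairs. Signs held in all 17 fits for 23 members. Of the 16 whose sign turned, leave-one-out log2 fold changes ran over these ranges: Actb -0.13 to 0.0918, Pfn1 -0.12 to 0.16, Arpc2 -0.0174 to 0.0728, Arpc4 -0.072 to 0.14, Arpc5 -0.0827 to 0.12, Actr2 -0.0123 to 0.19, Wipf1 -0.14 to 0.14, Rac1 -0.0546 to 0.20, Rhoa -0.0225 to 0.10, Myl6 -0.0105 to 0.19, Myl12a -0.0894 to 0.13, Msn -0.14 to 0.11, Ezr -0.0828 to 0.18, Tln1 -0.0416 to 0.11, Flna -0.0805 to 0.071, Itga4 -0.54 to 0.0768. Other turns were Actb at 0.00879 with library size only, 0.0152 with limma-voom, 0.00904 with the replicate block and 0.0177 on the normalized table; Arpc5 at 0.0255 with library size only, 0.0148 with no filter and 0.00964 with 5 CPM in 4 libraries; Myl12a at -0.00889 with upper quartile factors; and Wipf1 at 0.00232 with limma-voom and 0.00684 on the normalized table. The cause was not tested. No scaling moved the median of all genes by over 0.1. Cd74, not called in the reported fit, was called in 1 of the 17 fits, without PBS replicate 3 (log2 fold change 0.81, edgeR adjusted p = 0.0187); over the others its log2 fold change ran from 0.50 to 0.71 and its adjusted p from 0.0645 with the replicate block to 0.705 without DRQ replicate 1. Depth limits Itga4, Srf and Rac2 most.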

Other observations

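Ratios of counts between paralogous members within a library differed in how steady they were. Myl12b had 0.244 to 0.329 counts per Myl12a count in DRQ libraries and 0.235 to 0.311 in PBS libraries. Actg1 had 0.0111 to 0.0203 counts per Actb count in DRQ libraries and 0.00776 to 0.0182 in PBS libraries, and Tmsb10 had 1.255 to 3.20 counts per Tmsb4x count in DRQ libraries and 1.98 to 3.27 in PBS libraries. These 3 ratios overlapped between the groups. They are counts at the 3′ ends of different genes and do not compare numbers of molecules. In DRQ replicates 3 and 4 the thymosin ratio was 1.255 and 1.46, below all PBS libraries.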
